A study of Mus musculus with 25 samples.

Results

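The cell cycle genes described here are 43 genes chosen by symbol for their known roles in DNA replication and cell division, and all 43 had a row among the 19762 genes of the deposited count tables. They were divided into 11 genes of S phase and 32 genes of mitosis. They were followed in mouse libraries of sorted brain myeloid cells and of choroid plexus, all from 5XFAD mice, a transgenic strain in which mutant human amyloid genes are driven in neurons by the Thy1 promoter. The 11 sorted libraries held CD11b+ myeloid cells from the brain, of a CD45high gate (n = 2 at D14 and n = 3 at D7) which the design assigns to monocyte-derived macrophages, and of a CD45low gate (n = 3 at D14 and n = 3 at D7) which it assigns to microglia. All sorted libraries came from mice given anti-PD-1, an antibody against an inhibitory receptor of T cells, so the gate comparison is not a comparison of treatments. The 14 choroid plexus libraries, of whole tissue, were of 5 mice on anti-PD-1, 5 on control IgG and 4 without treatment. Their titles carry a letter and a closing number, and no label says what these mean. In replicate order the letters were M, M, F, F and F for anti-PD-1 and likewise for IgG. For the untreated mice they were M, M, F and M, so the letter was uneven over the groups. No label gives an age or the start from which D7 and D14 run, or says if each sorted library was a separate animal, so p-values in the sorted cells measure only the spread between libraries, which may be technical.

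In S phase a ring of MCM proteins opens the DNA, the sliding clamp encoded by Pcna holds the polymerases on it, and enzymes such as ribonucleotide reductase supply the nucleotides. Genes of this step are switched on by E2F factors at the start of S phase, and many of them also serve DNA repair. In mitosis cyclins and their kinases start chromosome condensation, kinetochores attach the chromosomes to the spindle, and the anaphase-promoting complex (APC/C) then marks cyclins and securin for destruction. Mitotic genes are expressed later, in G2 and M, from promoters that often carry a CCAAT box, which NF-Y binds, and a short element called the cell cycle genes homology region (CHR), which the MuvB complexes bind. Microglia of the healthy adult brain divide rarely, whereas monocytes and neutrophils descend from dividing precursors in the bone marrow.

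Each sorted library held 343439 to 974777 counts and each choroid plexus library 931461 to 1840072. Levels are CPM, a gene's counts set to a common library total with TMM scaling. A count of 0 allows a level of up to 3 counts. On library totals without TMM scaling this equals 3.08 to 8.74 CPM in a sorted library and 1.63 to 3.22 CPM in a choroid plexus library. With TMM scaling 3 counts were 9.84 CPM in CD45high D7 replicate 1 and 2.74 CPM in CD45low D14 replicate 2. In the CD45high gate 10 of 10 microglia markers fell and 8 of 8 monocyte markers rose, where 26.4% of all tested genes fell and 26.8% rose. The summed level of microglia markers was 3845 and 3034 CPM in the CD45high libraries at D14 and 5072, 3183 and 1143 CPM at D7. In the CD45low libraries it was 9867 to 15355 CPM. The summed level of mature neutrophil markers was 7456 to 11780.1 CPM in the CD45high libraries and 507 to 1217 CPM in the CD45low libraries, and that of granulocyte precursor markers was 5853 to 11918 CPM in the CD45high libraries and 259 to 4037 CPM in the CD45low libraries. All 8 tested mature neutrophil markers and all 7 tested precursor markers rose in the CD45high gate, and Il1r2, a further neutrophil marker, was at 0 throughout. The highest precursor level among the CD45low libraries belonged to D7 replicate 3. Neutrophil and precursor transcripts, and in the other direction microglia transcripts, thus differed between the gates together with the cell cycle genes. Their part in each gate difference was not tested. The choroid plexus libraries had 148590.0 to 227069 CPM of epithelial markers.

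Most tested members were higher in the CD45high gate than in the CD45low gate, and the mitosis genes by more than the S phase genes. The summed level of the 32 mitosis genes was 1933 and 2656 CPM in the CD45high libraries at D14 and 2328, 3676 and 3898 CPM at D7, against 268, 259 and 259 CPM in the CD45low libraries at D14 and 206, 314 and 380.2 CPM at D7. That of the 11 S phase genes was 934 and 1196 CPM in the CD45high libraries at D14 and 777, 1178 and 944 CPM at D7, against 458, 542 and 543 CPM in the CD45low libraries at D14 and 461, 381 and 477 CPM at D7. For both sums every CD45high library lay above every CD45low library. Within each D the CD45high libraries with a higher sum of microglia markers had a lower mitosis sum, and the part of microglia transcripts in this was not tested. The CD45low mean was 11.4% of the CD45high mean at D14 and 9.09% at D7 for the mitosis genes, against 48.3% at D14 and 45.5% at D7 for the S phase genes. Without Pcna and Mcm3, the S phase members not called between the gates, the S phase values were 24.1% and 24.7%. Without Pttg1 and Kif20a the mitosis values were 7.34% and 7.14%. The members left out were ones not called between the gates, so these shares had to fall. Spc24, a mitosis member also not called, was kept. The ratio of the mitosis sum to the S phase sum was 2.07 and 2.22 at D14 and 2.996, 3.12 and 4.13 at D7 in the CD45high libraries, against 0.584, 0.477 and 0.477 at D14 and 0.446, 0.823 and 0.797 at D7 in the CD45low libraries, so the gates did not overlap in this ratio either. In bulk samples of this kind, fewer cells of a type and less RNA per cell cannot be told apart.

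**Figure D1:**
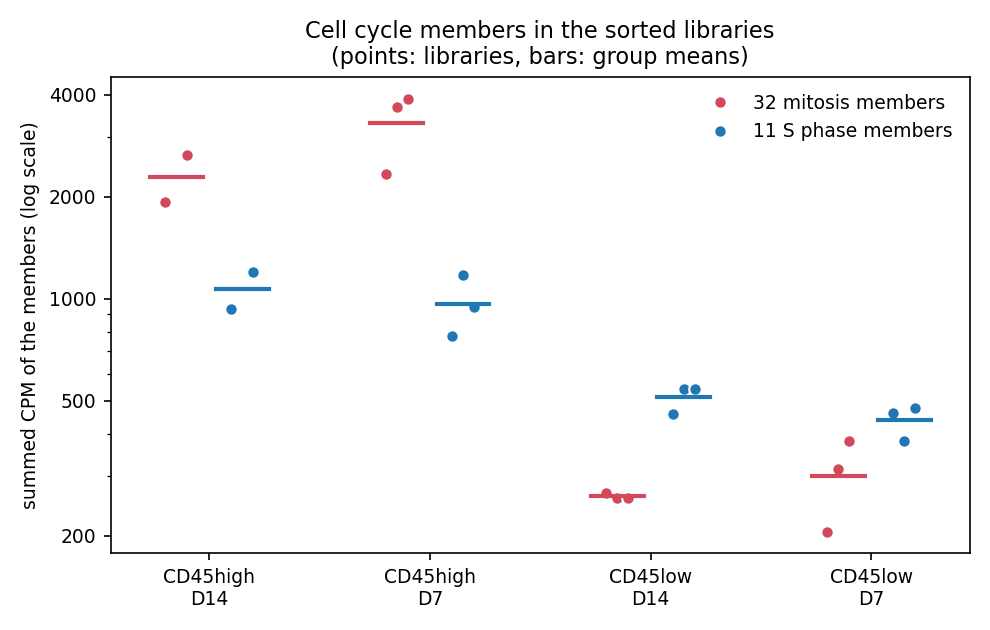
Summed CPM (log axis) of the 32 mitosis members and the 11 S phase members in each of the 11 sorted libraries, with group means as bars. The mitosis sums run from 1933 to 3898 CPM in the CD45high libraries and from 206 to 380.2 CPM in the CD45low libraries, and the mean S phase sum is 2.07 times as high at D14 and 2.2 times as high at D7.

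Of the 43 members, 38 passed the filter on low counts and were tested, 10 of S phase and 28 of mitosis. With edgeR's quasi-likelihood test on the mean of the D14 and D7 differences, 33 of the 38 rose in the CD45high gate and 0 fell, at an adjusted p under 0.05 over all 9058 tested genes. Of all tested genes 26.8% rose and 26.4% fell, 53.2% in either direction. By stage, 8 of 10 S phase members and 25 of 28 mitosis members rose. The median log2 fold change was 3.74 for the mitosis members and 1.77 for the S phase members, beside -0.08 for all tested genes. With upper-quartile factors the median of all genes was -0.21. As a difference in mean log2(CPM + 1), not fitted by edgeR, it was -0.34 with raw totals and -0.10 with TMM. The member medians are to be read relative to the median of all genes. A log2 fold change above 3 was found in 22 mitosis members and in 2 S phase members, and 14 mitosis members lay above the highest S phase member. In 30 of the 38 tested members, 24 of mitosis and 6 of S phase, every CD45high library lay above every CD45low library, which was so for 18.9% of all tested genes. Members that passed the filter only through the gate where they are high had to differ, so these counts are descriptions of the tested members and not of all 43.

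The same was seen within each D. At D14 31 members rose and 0 fell, 24 of mitosis and 7 of S phase, where 20.5% of all tested genes rose and 15.0% fell. At D7 34 rose and 0 fell, 26 of mitosis and 8 of S phase, where 22.3% of all tested genes rose and 20.5% fell.

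**Figure D2:**
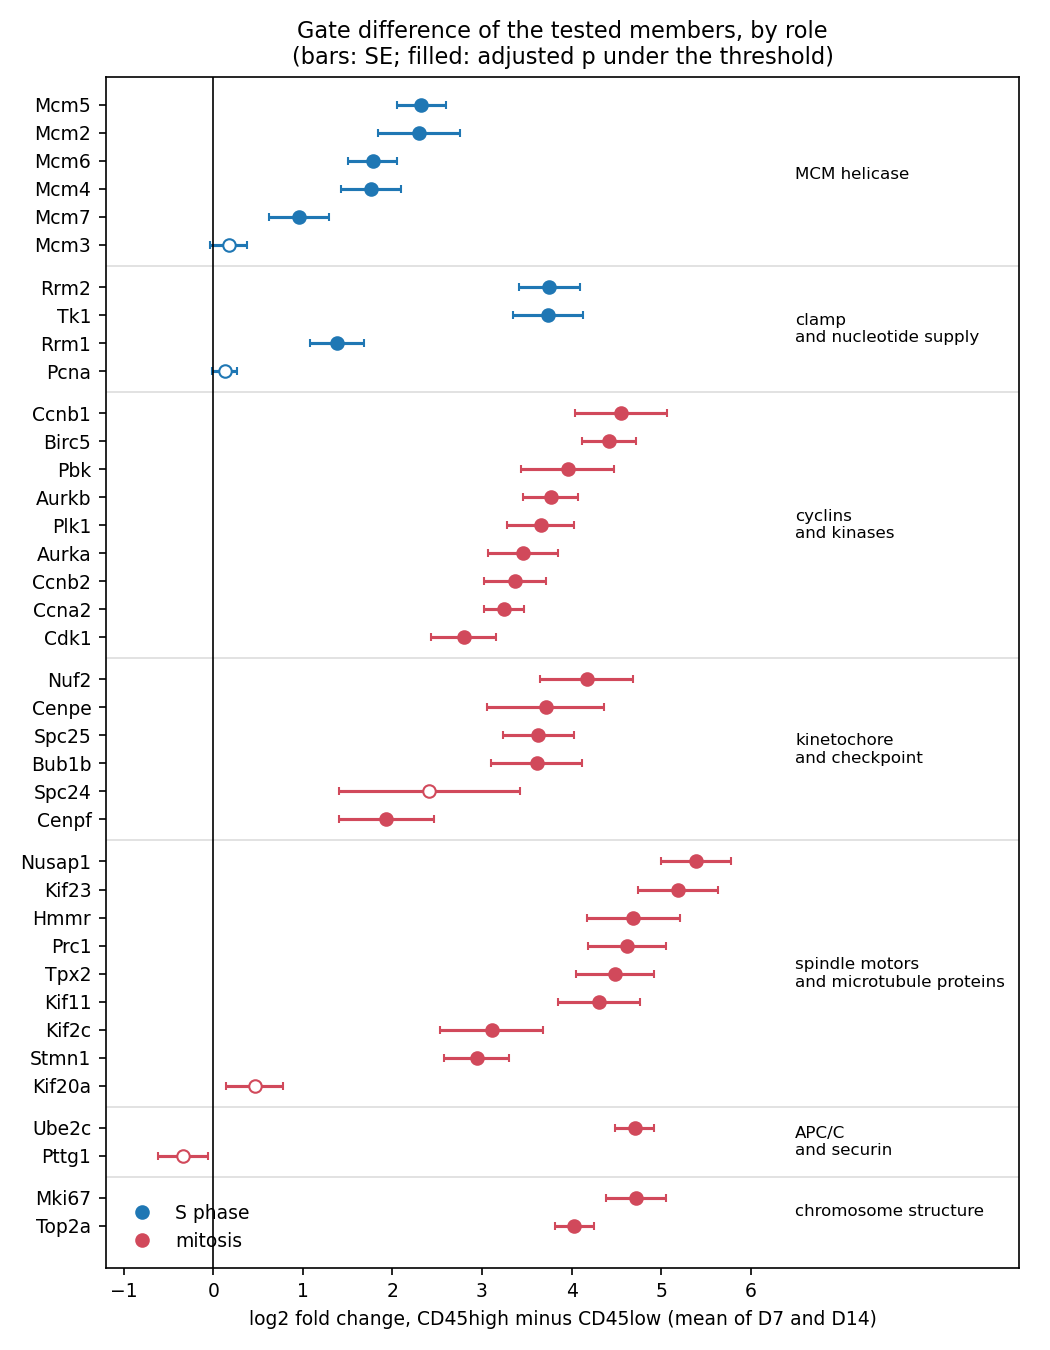
Log2 fold change of each tested member, CD45high minus CD45low over the mean of D14 and D7, with its SE as a bar, grouped by role; S phase members are blue, mitosis members red, and open circles did not pass the threshold. The median is 3.66 for the cyclins and kinases and 4.49 for the spindle proteins, and 1.77 for the MCM helicase. The open circles are Mcm3, Pcna, Spc24, Kif20a and Pttg1.

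The promoters of the members were read for the words by which these stages are known. RefSeq windows of 250 bases before to 50 bases after the transcription start, on the mouse build GRCm38.p6, were at hand for 35 members, 25 of mitosis and 10 of S phase. The CHR was searched as TTTGAA or TTCGAA, the NF-Y box as CCAAT and the E2F site as TTTCCCGC, TTTGGCGC, TTTCGCGC or TTTGCCGC, each on both strands. A CHR word was present in 19 of 25 mitosis members (76%) and in 2 of 10 S phase members (20%), beside 21.7% of all 27025 genes with a window. An E2F word was present in 2 mitosis members (8%) and in 4 S phase members (40%), beside 2.60% of all genes. CCAAT was frequent in both, in 76% of the mitosis members and 80% of the S phase members, beside 41.1% of all genes. A CHR word together with CCAAT was found in 17 mitosis members (68%) and 2 S phase members (20%), beside 9.65% of all genes. A match is a description of the letters and not a binding site.

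**Figure D3:**
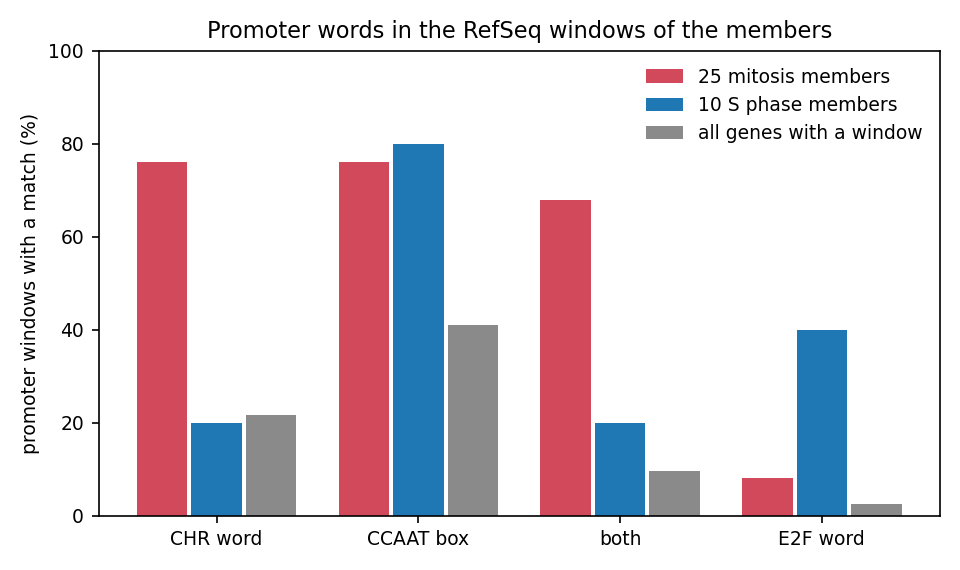
Share of RefSeq promoter windows (%) that hold a CHR word, a CCAAT box, both, or an E2F word, for 25 mitosis members, 10 S phase members and all genes with a window. The CHR word stands at 76% in mitosis members and at 20% in S phase members, and the E2F word at 8% in mitosis members and at 40% in S phase members.

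The windows of 7 members are shown because their words and their gate differences can be set side by side. They are written 5′ to 3′ on the strand of the gene, with every match to a CHR, CCAAT or E2F word in capitals, whichever strand it was read on. Matches that touch or overlap run together. Of the mitosis members, Top2a, which encodes the topoisomerase that untangles chromosomes, lies at chr11:99024140-99024439 on the minus strand, Mki67, the Ki-67 protein of the mitotic chromosome surface, at chr7:135716330-135716629 on the minus strand, Ube2c, the ubiquitin-conjugating enzyme of the APC/C, at chr2:164769679-164769978 on the plus strand, Nusap1, a spindle protein, at chr2:119618048-119618347 on the plus strand, and Pttg1, securin, at chr11:43425932-43426231 on the minus strand. Of the S phase members, Mcm5 lies at chr8:75109259-75109558 on the plus strand and Rrm2, the regulated subunit of ribonucleotide reductase, at chr12:24708004-24708303 on the plus strand.
Top2a: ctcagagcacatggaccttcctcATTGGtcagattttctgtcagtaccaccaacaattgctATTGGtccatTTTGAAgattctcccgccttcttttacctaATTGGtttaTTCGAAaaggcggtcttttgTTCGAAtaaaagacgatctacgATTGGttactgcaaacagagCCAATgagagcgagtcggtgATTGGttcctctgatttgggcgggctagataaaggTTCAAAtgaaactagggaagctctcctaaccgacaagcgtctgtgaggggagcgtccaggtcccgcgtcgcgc
Mki67: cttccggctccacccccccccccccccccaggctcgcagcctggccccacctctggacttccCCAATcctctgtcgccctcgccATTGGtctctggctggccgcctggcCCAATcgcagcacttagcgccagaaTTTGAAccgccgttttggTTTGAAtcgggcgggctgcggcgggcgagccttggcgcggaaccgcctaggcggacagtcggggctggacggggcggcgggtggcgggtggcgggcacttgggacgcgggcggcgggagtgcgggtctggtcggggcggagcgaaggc
Ube2c: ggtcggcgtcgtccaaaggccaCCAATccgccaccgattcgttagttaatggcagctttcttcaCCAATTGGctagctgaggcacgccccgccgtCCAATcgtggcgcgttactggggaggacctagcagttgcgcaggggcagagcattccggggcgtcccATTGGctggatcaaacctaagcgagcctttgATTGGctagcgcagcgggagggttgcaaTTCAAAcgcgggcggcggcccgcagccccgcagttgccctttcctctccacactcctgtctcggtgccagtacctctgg
Nusap1: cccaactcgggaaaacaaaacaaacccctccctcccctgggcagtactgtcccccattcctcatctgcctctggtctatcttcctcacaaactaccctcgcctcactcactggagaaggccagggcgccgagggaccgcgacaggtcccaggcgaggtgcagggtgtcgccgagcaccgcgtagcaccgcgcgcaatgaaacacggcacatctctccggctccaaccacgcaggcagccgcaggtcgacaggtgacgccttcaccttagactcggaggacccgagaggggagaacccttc
Pttg1: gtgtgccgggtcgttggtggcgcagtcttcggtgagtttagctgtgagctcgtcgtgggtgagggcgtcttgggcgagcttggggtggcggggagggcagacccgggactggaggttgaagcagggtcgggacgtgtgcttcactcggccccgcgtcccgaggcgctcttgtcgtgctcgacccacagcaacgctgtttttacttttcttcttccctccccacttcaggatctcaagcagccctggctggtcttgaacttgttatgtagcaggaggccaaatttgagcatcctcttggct
Mcm5: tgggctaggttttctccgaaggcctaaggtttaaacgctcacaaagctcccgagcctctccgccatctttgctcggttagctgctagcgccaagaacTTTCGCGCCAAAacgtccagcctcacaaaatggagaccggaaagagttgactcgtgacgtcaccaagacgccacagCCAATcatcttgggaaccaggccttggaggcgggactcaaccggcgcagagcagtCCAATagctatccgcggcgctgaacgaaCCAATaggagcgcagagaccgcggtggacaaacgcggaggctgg
Rrm2: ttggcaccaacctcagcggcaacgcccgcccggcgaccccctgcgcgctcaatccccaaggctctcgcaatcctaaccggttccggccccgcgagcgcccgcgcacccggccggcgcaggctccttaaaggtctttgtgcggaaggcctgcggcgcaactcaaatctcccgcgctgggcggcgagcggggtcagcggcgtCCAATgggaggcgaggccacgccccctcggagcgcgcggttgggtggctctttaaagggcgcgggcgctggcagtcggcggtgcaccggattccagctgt
The windows of Top2a, Mki67 and Ube2c hold both CHR and CCAAT words, that of Mcm5 holds CCAAT and E2F words, and that of Rrm2 a CCAAT word alone. Those of Nusap1 and Pttg1 hold none of the words, and on counts these were the mitosis members with the largest and the smallest gate difference. On whole reads recovered from the authors' scaled table the largest was Kif23, at 5.17, and Nusap1 had 4.59.

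Of the 6 subunits of the MCM helicase, which opens the DNA at replication origins, 5 rose in the CD45high gate and the median log2 fold change was 1.77. Mcm5 had 202 and 230.2 CPM in the CD45high libraries at D14 and 65.6, 162 and 221 CPM at D7, against 20.9, 36.6 and 47.8 CPM in the CD45low libraries at D14 and 43.2, 22.8 and 45.7 CPM at D7. Its log2 fold change was 2.32 ± 0.274 (SE; edgeR, adjusted p = 5.84e-07), the largest of the helicase. Mcm2 had 2.30 ± 0.459, Mcm6 1.78 ± 0.272, Mcm4 1.76 ± 0.336 and Mcm7 0.96 ± 0.332, and all 4 passed the threshold. Mcm3 did not, with 72.7 and 96.6 CPM in the CD45high libraries at D14 and 81.97, 73.4 and 47.4 CPM at D7, against 76.2, 69.5 and 72.6 CPM in the CD45low libraries at D14 and 55.9, 58.4 and 69.5 CPM at D7. Its gates overlapped, and the log2 fold change was 0.17 ± 0.203 (adjusted p = 0.503).

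Of the clamp and the enzymes of nucleotide supply, 3 of 4 tested members rose. Rrm2 had 65.4 and 65.8 CPM in the CD45high libraries at D14 and 52.5, 141 and 94.9 CPM at D7, against 7.37, 6.404 and 6.43 CPM in the CD45low libraries at D14 and 2.11, 4.95 and 9.14 CPM at D7. Every CD45high library lay far above every CD45low library, and the log2 fold change of 3.75 ± 0.343 was the largest among the S phase members (adjusted p = 1.83e-08). Tk1, thymidine kinase of the salvage route, was close to it at 3.74 ± 0.3895. Rrm1, the other reductase subunit, which is more stable through the cycle than Rrm2, had 81.8 and 86.3 CPM in the CD45high libraries at D14 and 39.3, 103 and 72.3 CPM at D7, against 39.3, 29.3 and 29.4 CPM in the CD45low libraries at D14 and 10.5, 33.7 and 40.2 CPM at D7. Its gates overlapped slightly, and the log2 fold change was 1.38 ± 0.301 (adjusted p = 6.84e-04). Pcna had 249 and 289.9 CPM in the CD45high libraries at D14 and 266, 285 and 257 CPM at D7, against 226, 299 and 287 CPM in the CD45low libraries at D14 and 267, 214 and 188 CPM at D7. Its levels overlapped throughout and its log2 fold change was 0.12 ± 0.144 (adjusted p = 0.489), which turned to -0.01 with upper-quartile factors. Tyms, thymidylate synthase, had 39 counts over the 11 libraries and was not tested.

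All 9 cyclins and kinases rose, with log2 fold changes of 2.79 to 4.55 and a median of 3.66. Ccna2, cyclin A2 of S and G2 phase, had 216 and 249 CPM in the CD45high libraries at D14 and 226, 241 and 262 CPM at D7, against 20.9, 25.6 and 22.97 CPM in the CD45low libraries at D14 and 15.8, 20.8 and 49.3 CPM at D7. The gates were far apart, with a log2 fold change of 3.25 ± 0.225 (edgeR, adjusted p = 3.82e-10). Birc5, survivin, a subunit of the chromosomal passenger complex with aurora B, had 119.9 and 162 CPM in the CD45high libraries at D14 and 134, 249.6 and 221 CPM at D7, against 2.46, 2.74 and 11.03 CPM in the CD45low libraries at D14 and 8.44, 8.91 and 16.4 CPM at D7. No library of one gate reached the range of the other, and its log2 fold change was 4.42 ± 0.302 (adjusted p = 3.04e-10). Ccnb1, cyclin B1, which drives the entry into mitosis, had the largest of the group at 4.55 ± 0.516, and its partner kinase Cdk1 the smallest at 2.79 ± 0.368. Between them lay Pbk, a mitotic kinase, at 3.96, Aurkb at 3.77, the polo kinase Plk1 at 3.66, Aurka at 3.46 and the second B cyclin Ccnb2 at 3.37.

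Of 6 tested kinetochore and checkpoint members 5 rose. Spc25, a subunit of the NDC80 complex that holds microtubules, had 27.3 and 41.1 CPM in the CD45high libraries at D14 and 65.6, 99.8 and 72.3 CPM at D7, against 4.91, 0.915 and 6.43 CPM in the CD45low libraries at D14 and 3.16, 3.96 and 5.48 CPM at D7. The gates did not overlap, and its log2 fold change was 3.63 ± 0.397 (adjusted p = 2.22e-07). Its partner Spc24 had 5.45 and 0 CPM in the CD45high libraries at D14 and 9.84, 162 and 102 CPM at D7, against 2.46, 0.915 and 0.919 CPM in the CD45low libraries at D14 and 3.16, 4.95 and 12.8 CPM at D7. Only D7 replicates 2 and 3 of the CD45high gate were high, and the log2 fold change of 2.41 ± 1.01 fell just short of the threshold (adjusted p = 0.0503). It passed with DESeq2 at an adjusted p of 0.00455, passed with no filter on low counts, passed on whole reads recovered from the authors' scaled table at 4.25 ± 0.515 (adjusted p = 1.14e-06) with gates that did not overlap, passed without CD45high D7 replicate 1, CD45high D14 replicate 2 or CD45low D7 replicate 3, and was 0.36 without CD45high D14 replicate 1. Nuf2, of the same complex, had 4.17 ± 0.522, the checkpoint kinase-like Bub1b 3.61 ± 0.507, the kinetochore motor Cenpe 3.71 ± 0.649 and Cenpf, a large kinetochore protein, 1.93 ± 0.532. Bub1 and Ndc80 had 23 and 31 counts over the 11 libraries and were not tested.

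On counts the spindle motors and microtubule proteins held the 2 largest differences of all members, with 8 of 9 higher and a median of 4.49. Nusap1 had 74.5 and 84.3 CPM in the CD45high libraries at D14 and 98.4, 64.6 and 147 CPM at D7, against 2.46, 1.83 and 0.919 CPM in the CD45low libraries at D14 and 2.11, 3.96 and 0 CPM at D7. The log2 fold change of 5.39 ± 0.3898 was the largest on counts (adjusted p = 6.69e-10). Kif23, a motor of the central spindle, followed at 5.19 ± 0.445, then Hmmr at 4.69, the microtubule bundler Prc1 at 4.62, the aurora A activator Tpx2 at 4.49, the spindle motor Kif11 at 4.30 and the depolymerase Kif2c at 3.11. On the recovered reads Kif23 was the largest at 5.17 ± 0.3995, and Nusap1, at 4.59 ± 0.384, also lay below Ube2c at 4.68. In the CD45low libraries Nusap1 had 2, 2 and 1 counts at D14 and 2, 4 and 0 at D7. Kif23 had 1, 1 and 4 counts at D14 and 1, 2 and 0 at D7 there. These counts are near the floor of 3 counts, so the size and rank of both differences are uncertain. Stmn1, stathmin, which destabilises microtubules, had 109 and 154 CPM in the CD45high libraries at D14 and 138, 519.8 and 438 CPM at D7, against 28.3, 13.7 and 6.43 CPM in the CD45low libraries at D14 and 21.1, 62.4 and 78.6 CPM at D7. Its gates did not overlap, the spread within each gate was wide, and the log2 fold change was 2.94 ± 0.361 (adjusted p = 1.02e-06). Kif20a, a motor of cytokinesis, had 19.99 and 57.6 CPM in the CD45high libraries at D14 and 52.5, 32.3 and 38.4 CPM at D7, against 41.8, 38.4 and 21.1 CPM in the CD45low libraries at D14 and 23.2, 24.8 and 25.6 CPM at D7. Its gates overlapped and the log2 fold change was 0.46 ± 0.313 (adjusted p = 0.226), which was -0.0008 without CD45high D14 replicate 2. On the reads recovered from the authors' scaled table Kif20a rose by 1.00 ± 0.229 on the log2 scale (edgeR, adjusted p = 0.00113) and its gates did not overlap, so its call differs between the tables.

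Of the genes of the APC/C and its substrate securin, Ube2c was among the members with the largest gate difference. It had 189 and 284 CPM in the CD45high libraries at D14 and 387, 376 and 452 CPM at D7, against 8.599, 16.5 and 13.8 CPM in the CD45low libraries at D14 and 8.44, 13.9 and 7.31 CPM at D7. The gates were far apart, with a log2 fold change of 4.71 ± 0.215 (adjusted p = 1.45e-12). Pttg1 had 56.3 and 55.5 CPM in the CD45high libraries at D14 and 22.95, 38.2 and 40.7 CPM at D7, against 58.97, 39.3 and 102 CPM in the CD45low libraries at D14 and 47.5, 53.5 and 34.7 CPM at D7. It was the mitosis member with the smallest value, -0.34 ± 0.278 (edgeR, adjusted p = 0.324), with overlapping gates. In the authors' scaled table, from which whole reads could be recovered and where 40 members rose and 28.0% of tested genes rose, 27.7% fell and 55.7% did either, the estimate was 0.13, so its sign differs between the tables. Cdc20, the activator of the APC/C, was listed at 0 counts in all libraries and was not tested.

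Of the chromosome structure genes Top2a had 256 and 302 CPM in the CD45high libraries at D14 and 229.5, 385 and 418 CPM at D7, against 19.7, 15.6 and 11.9 CPM in the CD45low libraries at D14 and 14.8, 28.7 and 25.6 CPM at D7. Its log2 fold change was 4.03 ± 0.2201. Mki67 had 127 and 134 CPM in the CD45high libraries at D14 and 148, 264 and 262 CPM at D7, against 6.14, 6.404 and 0.919 CPM in the CD45low libraries at D14 and 3.16, 7.92 and 20.1 CPM at D7, with a log2 fold change of 4.72 ± 0.338 (adjusted p = 5.76e-10). In both, every CD45high library lay far above every CD45low library. Ncapg, a condensin subunit, had 19 counts over the 11 libraries and was not tested.

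Some member counts may hold reads of other genes. Exons of 9 members overlap a gene on the opposite strand in the GENCODE mouse annotation, and the sources used here do not say whether counting used the strand, so such reads cannot be told apart. The largest overlap was that of Kif20a with Cdc23, 977 bases. In the choroid plexus Kif20a lay between 26.8 and 41.7 CPM and Cdc23 between 26.8 and 42.7 CPM, within 2 CPM of each other in each. In the sorted cells Cdc23 had 41.8 and 84.3 CPM in the CD45high libraries at D14 and 81.97, 70.5 and 72.3 CPM at D7, against 41.8, 43.9 and 23.9 CPM in the CD45low libraries at D14 and 24.3, 28.7 and 29.2 CPM at D7, a log2 fold change of 1.11 ± 0.256 (adjusted p = 0.00112). Ccna2 overlaps Exosc9 by 299 bases, and Nusap1, Prc1, Ube2c, Tk1, Mcm7, Cdc20 and Ncapg overlap other genes, while pseudogenes are named for Ccnb1, Ccnb2, Tyms and Pcna. Leaving out all of these, 30 members were in the table, 28 were tested and 25 rose in the CD45high gate, beside 26.8% of all tested genes.

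Between D14 and D7 no member passed the threshold in either gate. Within the CD45high gate edgeR called 0 of 38 tested members, where 0.011% of all tested genes were called, while DESeq2 called 1 and unadjusted p was under 0.05 for 4. Of the 28 mitosis members 24 had a negative estimate and their median was -0.46 on the log2 scale, while 6 of 10 S phase members were positive and their median was 0.21, beside 0.01 for all tested genes. The largest difference was that of Spc24, -4.92 ± 1.05 for D14 minus D7 (edgeR, adjusted p = 0.0904), from 3 and 0 counts in the CD45high libraries at D14 against 3, 55 and 45 counts at D7. It was the member called by DESeq2, and by edgeR without CD45high D7 replicate 1. With reads taken back from the authors' scaled table Spc24 had 17.2 and 31.6 CPM at D14, against 22.0, 143 and 106.8 CPM at D7, and was not called. Ube2c had -0.78 ± 0.256 (adjusted p = 0.3), Stmn1 -1.49 ± 0.494 (adjusted p = 0.3) and Spc25 -1.22 ± 0.496 (adjusted p = 0.409). The sign was shared by neutrophil markers. In the CD45high gate 8 of 8 tested mature neutrophil markers had a negative estimate for D14 minus D7 with a median of -0.56 and 6 of 7 granulocyte precursor markers with a median of -0.64, none of them called. Their part in the values of the mitosis members was not tested.

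**Figure D4:**
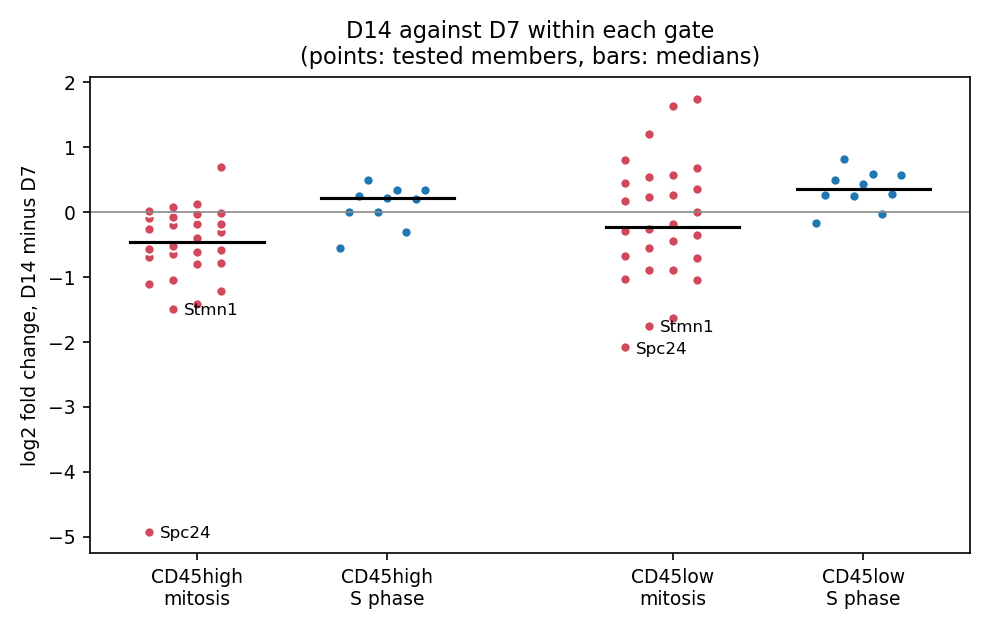
Log2 fold change, D14 minus D7, of each tested member (points) with its median (bar), for mitosis and S phase members within the CD45high and the CD45low gate. The CD45high mitosis members centre at -0.46 with Spc24 at -4.92, and no point passed the threshold.

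In the CD45low gate edgeR called 0 of 38 tested members between D14 and D7, where 0.0994% of all tested genes were called, 0.0221% higher and 0.0773% lower at D14. DESeq2 called 0 members as well, and 1 had an unadjusted p under 0.05. The medians were -0.23 for mitosis members and 0.36 for S phase members, beside -0.02 for all tested genes. Stmn1 had the lowest p at -1.75 ± 0.545 (adjusted p = 0.361). In the same libraries 8 of 8 tested mature neutrophil markers had a negative estimate, with a median of -1.47, and 2 of 7 tested granulocyte precursor markers fell at D14. Summed mature markers were 510, 507 and 587 CPM at D14 and 547, 614 and 1217 CPM at D7. Summed precursor markers were 393, 259 and 583 CPM at D14 and 956, 684 and 4037 CPM at D7. In both sums D7 replicate 3 was the highest. The part of these markers in the values of the members was not tested. The difference between the gates was compared between D14 and D7 directly, and edgeR and DESeq2 called 0 of 38 members (0.0% of all tested genes with edgeR). In that test 1 member had an unadjusted p under 0.05, Ube2c at -1.14 ± 0.462 (adjusted p = 0.806).

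Other genes of the cell cycle were taken from 4 lists, in the same libraries and chosen with earlier results of these data known. The further mitosis genes had a higher median gate difference than the further replication genes. Genes that passed the filter only through the gate where they are high had to differ here too, so the counts describe tested genes only. Of 50 further mitosis genes 41 were tested, 37 rose and 0 fell, with a median log2 fold change of 3.03, where 26.8% of all tested genes rose and 26.4% fell. Lmnb1, lamin B1 of the nuclear envelope, had 4.48 ± 0.213 (adjusted p = 2.28e-12), Hmgb2, a chromatin protein, 2.71 ± 0.177, and Espl1, separase, the protease that securin holds back, -0.11 ± 0.456 (adjusted p = 0.858). Of 32 further replication genes 20 were tested, 14 rose and 0 fell beside the same shares of all genes, with a median of 1.25. The histone chaperones Asf1b and Chaf1a had 3.74 ± 0.339 and 3.53 ± 0.444, whereas Prim2 and Pola2, of the DNA polymerase alpha-primase complex, had -0.04 and 0.00 and did not pass.

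Genes of G1 and of cell cycle arrest were split. Of 21 tested 10 rose and 5 fell, with a median of 0.42, where 26.8% of all tested genes rose and 26.4% fell, so the count that fell is near the share of all genes. Ccnd3, cyclin D3, had 2.91 ± 0.138 and Cdkn2d, an inhibitor of the cyclin D kinases, 4.01 ± 0.202, while Myc, a growth factor-induced transcription factor, had -2.20 ± 0.201 and the antiproliferative gene Btg2 -1.09 ± 0.152 (adjusted p = 5.61e-06). Of 16 tested transcription factors of the cycle 8 rose and 3 fell beside the same shares of all genes, with a median of 0.56. E2f2, an activator, had 2.98 ± 0.188 and E2f8, a repressor expressed with S phase, 3.72 ± 0.4699, while E2f5 had -2.20 ± 0.301 and E2f3 -1.49 ± 0.312. The mean level of E2f2 in the CD45high gate was 246 CPM (SD 9.19) at D14 and 341 CPM (SD 48.2) at D7. In the CD45low gate it was 31.5 CPM (SD 10.6) at D14 and 43.3 CPM (SD 6.84) at D7.

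In the choroid plexus most mitosis members had few counts or none. Of the 43 members, 9 passed the filter, the S phase genes Mcm2, Mcm4, Mcm6, Pcna and Rrm1 and the mitosis genes Ccna2, Cdk1, Kif20a and Pttg1. Over all 14 libraries 20 members had fewer than 10 counts, 19 of mitosis and 1 of S phase, and 4 had none. Top2a had 4 counts and Mki67 4, Ube2c 6 and Aurkb 3. The summed level of the mitosis genes was 92.99, 82.3, 102, 136 and 184 CPM in the anti-PD-1 mice, against 146, 96.1, 143, 136 and 125 CPM in the IgG mice and 118, 95.8, 105 and 112 CPM in the untreated mice. That of the S phase genes was 260.4, 268, 201, 258 and 247 CPM in the anti-PD-1 mice, against 245, 293, 251, 233 and 244 CPM in the IgG mice and 289.6, 222, 272 and 287 CPM in the untreated mice. In neither sum were the 3 groups apart. Pttg1 and Kif20a made up much of the mitosis sum. Its mean was 119.5 CPM (SD 41.4) in the anti-PD-1 mice, 129.1 CPM (SD 20.2) in the IgG mice and 107.6 CPM (SD 9.60) in the untreated mice. Without these genes it was 58.7 (SD 13.6), 52.3 (SD 10.03) and 44.5 CPM (SD 7.86), with groups that again overlapped.

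With edgeR 0 of the 9 tested members were called for anti-PD-1 minus IgG, for anti-PD-1 minus untreated or for IgG minus untreated, and 0.0% of the 9513 tested genes were called in each. Members with an unadjusted p under 0.05 were 0, 1 and 1, and DESeq2 called 0 in each. These comparisons share libraries, so their values are not independent. Of the S phase members Pcna had 176, 142, 113, 143 and 140.0 CPM in the anti-PD-1 mice, against 143, 167, 151, 142 and 136 CPM in the IgG mice and 177, 128, 142 and 168 CPM in the untreated mice. The 3 groups overlapped, and its log2 fold change was -0.06 ± 0.117 against IgG and -0.05 ± 0.129 against untreated mice. Rrm1 had 25.1, 26, 21.01, 33.9 and 38.6 CPM in the anti-PD-1 mice, against 36.5, 32.4, 33.6, 24.3 and 28.8 CPM in the IgG mice and 34.1, 26.3, 31.5 and 35.4 CPM in the untreated mice. For anti-PD-1 minus IgG it had a log2 fold change of -0.09 ± 0.192, with groups that overlapped. Mcm4 had 17.7, 31.2, 17.3, 21.05 and 23.6 CPM in the anti-PD-1 mice, against 19.8, 24.04, 15.7, 17.9 and 22.1 CPM in the IgG mice and 27.1, 27.9, 20.2 and 23.9 CPM in the untreated mice. Mcm6 had 15.8, 15.6, 10.5, 15.2 and 10.2 CPM in the anti-PD-1 mice, against 16.7, 13.9, 17.9, 16.2 and 17.7 CPM in the IgG mice and 16.04, 5.59, 25.8 and 22.1 CPM in the untreated mice. Both again overlapped between groups, with log2 fold changes of 0.14 ± 0.208 for Mcm4 and -0.29 ± 0.293 for Mcm6 against IgG. Of the mitosis genes Kif20a had 33.5, 26.9, 38.3, 40.9 and 36.98 CPM in the anti-PD-1 mice, against 41.7, 26.8, 38.8, 34.9 and 33.8 CPM in the IgG mice and 38.1, 35.1, 29.9 and 30.1 CPM in the untreated mice. Its groups overlapped with a log2 fold change of 0.02 ± 0.169 against IgG.

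Ccna2 had 25.1, 34.7, 28.5, 13.4 and 24.4 CPM in the anti-PD-1 mice, against 25.02, 30.5, 29.1, 18.7 and 8.305 CPM in the IgG mice and 19.04, 13.6, 9.69 and 15.05 CPM in the untreated mice. The ranges of Ccna2 overlapped between the groups. Its log2 fold change was 1.01 ± 0.315 for anti-PD-1 minus untreated (unadjusted p = 0.00355, edgeR adjusted p = 0.998), 0.82 ± 0.321 for IgG minus untreated (unadjusted p = 0.0173, adjusted p = 0.99) and 0.20 ± 0.263 for anti-PD-1 minus IgG. The gene overlapping it, Exosc9, had 0.85 ± 0.334, 0.89 ± 0.333 and -0.04 ± 0.275 in these comparisons, and the part of shared reads was not tested.

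Pttg1 was the member whose choroid plexus libraries differed most. It had 0, 0, 1.501, 56.1 and 70.02 CPM in the anti-PD-1 mice, against 40.7, 12.9, 48.5, 51.9 and 53.7 CPM in the IgG mice and 24.1, 21.5, 34.7 and 38.9 CPM in the untreated mice. The anti-PD-1 mice thus held both the lowest and the highest values of the 14. In counts, 3 anti-PD-1 mice had 0, 0 and 2 and the other anti-PD-1 mice 96 and 89, while the IgG mice had 14 to 97 and the untreated mice 24 to 44. Its log2 fold change for anti-PD-1 minus IgG was -0.80 ± 0.511 and did not pass (adjusted p = 1). The libraries at 0 were the 2 anti-PD-1 libraries whose titles carry the letter M, and the library with 2 counts carries the letter F. In M libraries alone Pttg1 was the 1 gene called by edgeR, at -7.85 for anti-PD-1 minus IgG (adjusted p = 0.034), a fitted value that rests on 2 libraries at 0 and is not a bound. The direct test of whether the treatment difference differed between F and M gave 7.83 ± 2.34 for F minus M (unadjusted p = 0.00312, adjusted p = 0.998), where 0.0% of genes were called, DESeq2 called 0 and for 1 of 12 tested members the unadjusted p was under 0.05. It passed without anti-PD-1 replicate 3, the F library with 2 counts. In both of these groups the letter goes with a number at the end of the title, and the letter and that number cannot be told apart. A second transcript listed for the gene in the scaled table, NM_001131054, had 0, 0, 0, 12 and 9 reads in the anti-PD-1 mice, 6, 4, 11, 8 and 7 in the IgG mice and 3, 2, 5 and 9 in the untreated mice.

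**Figure D5:**
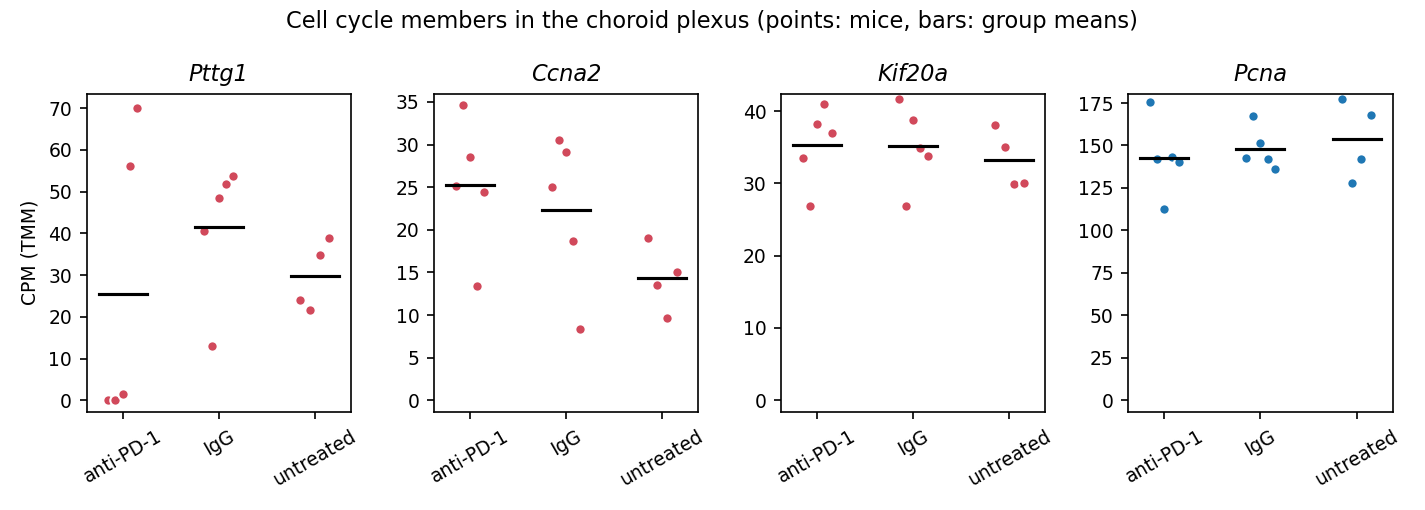
CPM of Pttg1, Ccna2, Kif20a and Pcna in each choroid plexus mouse (points) with the group mean (bar), for anti-PD-1, IgG and untreated mice. Pttg1 is near 0 in 3 anti-PD-1 mice and highest of all in the other 2, while the groups overlap for Ccna2, Kif20a and Pcna.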

How the data were processed

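The 25 samples were 3′-end libraries of polyadenylated RNA. Per the submitters' processing notes Bowtie2, HOMER and the build mm9 were used; versions, annotation, strand and duplicate handling are not stated by any source at hand. The authors deposited counts per gene (whole numbers, not normalized) and a table of signal scaled to a common depth, in which 100% of values were whole reads within 0.05 reads. For sorted cells the reads recovered from it were 1.26 to 1.45 times the counts, by a step that is not stated, so the gate test was repeated on the recovered reads, where 40 of 43 members rose (28.0% of 10390 tested genes rose). For the choroid plexus they were 1.52 to 1.57 times the counts, summed over all rows. There a gene can have more than 1 transcript row, as Pttg1 has, so this ratio is not an excess per gene. The reads of the first listed Pttg1 transcript equalled its counts in every library. The treatment tests were not repeated on the choroid plexus reads.

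Counts were tested with edgeR 4.0.16 in R 4.3.3 (TMM, filterByExpr by group, quasi-likelihood test, Benjamini-Hochberg adjustment over all tested genes, threshold 0.05). All 11 sorted libraries entered 1 fit with 4 group means (7 residual degrees of freedom), and all 14 choroid plexus libraries another with 3 group means with the letter of the titles (M or F) (10 residual degrees of freedom). SE is the log2 fold change over the root of F, and CPM means carry SD. The scripts were tested on simulated data. DESeq2 1.42.0, upper-quartile factors, no filter on low counts, replicate blocks and leaving out each library were alternatives. The floor of 3 counts covers counting error only.

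Any member could be named. Values per library are given for the 2 most abundant tested members of each role, the largest and smallest gate difference of each stage, the members not called between the gates, the choroid plexus members of highest level or lowest p, and fold changes, from other lists, for the up to 2 genes of lowest p with a positive and with a negative estimate. Mcm2, Tk1 and others are given by fold change. Members and lists were chosen with earlier results of these data known. RefSeq windows are of another build than the files and were matched by symbol, 35 of 43 members.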

Additional observations from a re-analysis of the deposited data

How the results depend on the processing

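The count of members called between the gates was 33, and 32 to 34 over the fits that leave out 1 library. At D14 it was 31 (26 to 31) and at D7 34 (31 to 34). Over the same fits the median log2 fold change was 1.61 to 1.95 for S phase members and 3.53 to 3.94 for mitosis members. The titles of the gates share a leading number within each D, and whether it marks 1 brain is not stated. Shared numbers were not taken as pairs, since no label says that they are. The deviations of same-numbered libraries from their group means correlated at 0.0139 to 0.0608 between the gates, at -0.0087 to 0.101 between D14 and D7 and at -0.0397 to 0.164 in the choroid plexus. Counting error also lowers such values, so they cannot decide whether libraries were paired. With a replicate block edgeR called 32 members over the mean of D14 and D7, 29 at D14 and 34 at D7, with medians of 1.79 and 3.90, and 0 members between D14 and D7, for the gate difference between them, or in the 3 choroid plexus comparisons.

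Between D14 and D7 the CD45high count of 0 members became 1 with DESeq2 (Spc24), 2 with no filter on low counts (Spc24 and Stmn1) and 0 to 1 over the fits without 1 library. In CD45low it was 1 with no filter (Stmn1), and 0 to 0 without 1 library. Pttg1 was the 1 member called for anti-PD-1 minus IgG with no filter and in letter M alone, for anti-PD-1 minus untreated in letter M alone, and for the difference between F and M with no filter and within a range of 0 to 1 without 1 library. For the treatment comparisons and for the gate difference between D14 and D7 the range without 1 library was 0 to 0. Untreated F mice were 1 library, so letter F alone was not fitted for the comparisons with them. The cause of these changes was not tested.

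Of members that were not called, Pcna turned to -0.0069 with upper-quartile factors and Pttg1 to 0.13 on recovered reads in the gate comparison, and Kif20a ran from -0.0008 to 0.753 without 1 library. On recovered reads Kif20a was called, at 1.00 ± 0.229, and so was Spc24, at 4.25 ± 0.515. For anti-PD-1 minus IgG, letter M alone gave -0.17 for Kif20a, 0.047 for Mcm6 and 0.0351 for Pcna, and letter F alone 0.11 for Rrm1. Without 1 library Ccna2 ran from -0.0247 to 0.429, Kif20a from -0.0501 to 0.109, Pcna from -0.115 to 0.005 and Rrm1 from -0.208 to 0.0141, all around 0. Over all genes edgeR called 9 between D14 and D7 in CD45low, 128 with no filter, 3 on recovered reads, 15 with the block and 23 with DESeq2. In CD45high it was 1, then 114, 5, 4 and 17, and 0 with upper-quartile factors. The gate difference between D14 and D7 had 0, 31 with no filter and 1 with the block. For anti-PD-1 minus IgG 0 became 31 with no filter and 1 with DESeq2, with the block and in letter M alone. For anti-PD-1 minus untreated 0 became 13 with no filter, 2 with DESeq2 and with the block, and 1 without the letter and in letter M alone. For IgG minus untreated 0 became 27 with no filter and 2 with DESeq2 and with the block, and for the difference between F and M it was 3 with no filter.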

Other observations

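Of the 43 members 13 had more than 1.5 times as many reads in the scaled table as counts in the count table of the sorted cells, with a median ratio of 1.14 over the 42 members with counts. Cdc20 had 121 reads over the CD45high libraries and 19 over the CD45low libraries, against 0 counts in both. On those reads Cdc20 had 18.5 and 42.2 CPM in the CD45high libraries at D14 and 53.9, 63.1 and 43.02 CPM at D7, against 1.84, 2.85 and 2.11 CPM in the CD45low libraries at D14 and 1.55, 2.19 and 6.67 CPM at D7. Ndc80, of the outer kinetochore, had 49 and 52.7 CPM in the CD45high libraries at D14 and 36.7, 52.6 and 46.2 CPM at D7, against 1.84, 5.697 and 2.11 CPM in the CD45low libraries at D14 and 4.65, 2.19 and 9.33 CPM at D7. Both differed between the gates on those reads, with log2 fold changes of 3.85 ± 0.416 and 3.53 ± 0.376 (SE, edgeR). Bub1 and Ncapg had 4.01 ± 0.653 and 4.26 ± 0.728 there. Tyms, which the scaled table lists under NR_033402, an identifier other than that of the count table, had 285 reads against 39 counts and 0.92 ± 0.315. Mcm7 had 651 reads against 194 counts and a log2 fold change of 1.23 ± 0.217 on the reads. Mcm3, Pcna and Pttg1 were the 3 members that did not pass on either table.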
